A study of Mus musculus with 2 samples.

Results

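The genes described here are annexins and S100 proteins: Anxa1 to Anxa7, S100a6, S100a10 and S100a11. They were chosen for their difference between the pools compared below, so the size of that difference is a description of the choice and of these arrays. A gene was read from the Affymetrix probe sets whose platform annotation names that gene and no other, by its current symbol or an older one. This gave 21 probe sets for 9 of the 10 listed genes. The probe set that names S100a11 also names further genes, so S100a11 was not analysed here. The 9 genes stand among 13117 genes that passed the signal filter in the whole series.

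Liver was compared between male wild-type C57BL/6 mice, 8 weeks old, after a sham operation and after renal ischaemia-reperfusion (RIR), in which both kidneys were kept warm and without blood flow for 30 minutes and then reperfused. Livers of both groups were taken 24 hours after surgery. Per group, 100 mg of frozen liver from 3 mice was pooled into 1 tube and hybridised to 1 array. There were thus 2 arrays and no replicates, the spread between mice is unknown, and no test, error or p-value can be given for any difference below. Because each pool is whole liver, a change in the share of a cell type and a change of RNA per cell cannot be told apart.

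Annexins bind phospholipid membranes in the presence of calcium and act in vesicle traffic, membrane repair and the attachment of the actin skeleton to membranes. S100 proteins are small calcium sensors that pair with target proteins, among them annexins. S100a10 binds the N-terminal tail of Anxa2, and their complex docks plasminogen and its activator at the cell surface, whereas S100a11 pairs with Anxa1. S100a10 differs from its relatives in having lost calcium binding. In healthy liver, Anxa2 and S100a10 are known as abundant in bile duct and sinusoidal cells rather than in hepatocytes.

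Signals are scaled intensities, and differences are log2(signal + 16) of the RIR pool minus that of the sham pool. A probe set passed the filter when its brighter signal reached the median signal of the array it came from, 257.0 for the sham pool and 254.1 for the RIR pool. The passing probe set that was brightest on average over both arrays, on the log2 scale, stands for the gene. All 9 measured members passed, Anxa1 and S100a6 through the RIR pool alone. The difference was above 0 for 6 members and below 0 for 3, beside 6467 and 6647 of all 13117 genes. Anxa1 and S100a6 are among the 6 and had to be higher in the RIR pool, given the filter.

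Transcripts of S100a10, Anxa2 and Anxa1 were at least 2-fold higher in the RIR pool, and no member was at least 2-fold lower. By the same threshold, 8.71% of all genes were higher and 9.59% lower. The count of 3 of 9 is given beside these shares as a description, since the members were chosen on this comparison. The median log2 difference was 0.85 over the 9 members and -0.01 over all genes. Anxa5 and Anxa7 had differences of 0.86 and 0.85, S100a6 was dim in the sham pool, Anxa3 had nearly equal signals, and Anxa6 and Anxa4 had differences of -0.64 and -0.90. Ranked from the highest difference among all 13117 genes, S100a10 was at rank 55 and Anxa2 at 148.

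**Figure D1:**
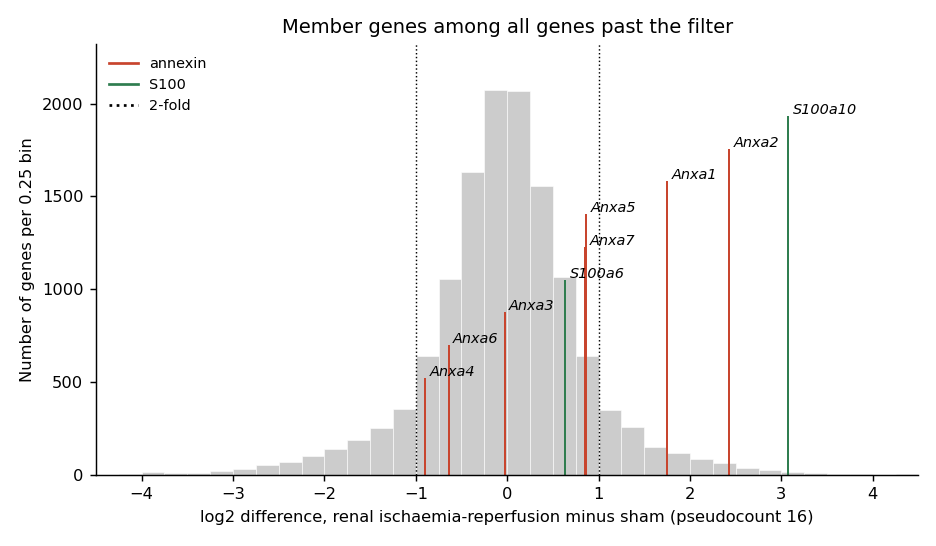
Histogram of the log2 difference between the pools over genes past the filter, as number of genes per bin, with a line at the value of each of the 9 members (the height of a line carries no value) and dotted lines at 2-fold. S100a10, Anxa2 and Anxa1 lie to the right of the upper 2-fold line, and the other 6 members lie between the lines.

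S100a10, the Anxa2 ligand, had the largest difference of the members by the probe sets that stand for the genes. By the mean over passing probe sets Anxa2 (3.23) was above S100a10 (2.98), as it was where the least different probe set of each gene was taken (2.43 and 0.05). Both means include a probe set that passed the filter through the RIR pool alone, 1437692_x_at for Anxa2 and 1416762_at for S100a10. The size of each mean is therefore uncertain. The S100a10 probe set 1456642_x_at read 844.4 in the sham pool and 7227 in the RIR pool, 8.42-fold higher. The probe set 1416762_at read 184.1 and 11360 in the same order. Its sham signal lay below the array median, so its fold is given as at least 41.7, against that median. The remaining probe set, 1439348_at, read 371.5 and 384.9, a log2 difference of 0.05. Signals of S100a10 were therefore far apart between the pools by a pair of probe sets and nearly equal by the other. The differences of the 3 probe sets ranged over 5.78 on the log2 scale. A range at least as wide was found in 0.108% of the 1855 genes with 3 or more passing probe sets, S100a10 among them, and the median range of these genes was 1.00. The suffix _x_at marks probes that can cross-hybridise with related sequences, so the value that stands for S100a10 is uncertain in size.

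Anxa2, which bridges membranes to actin and binds S100a10, read 1182 in the sham pool and 6439 in the RIR pool by 1419091_a_at. This is a 5.39-fold difference, with both signals above the array medians. Its probe set 1437692_x_at read 8.5 and 382.6, which allows a bound of at least 1.46-fold higher. The remaining probe set, 1437691_at, was below the median on both arrays, with 18.7 and 20.5. That bound comes from a probe set that passed the filter through the RIR pool alone, so the difference of Anxa2 rests on 1419091_a_at.

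Anxa1, an inhibitor of cytosolic phospholipase whose cleaved tail acts on formyl peptide receptors and dampens neutrophil entry, read 179.2 in the sham pool and 641.5 in the RIR pool. The sham signal was below the array median, so Anxa1 is given as at least 2.41-fold higher. A second probe set of Anxa1 was below the median in both pools, at 36.6 and 34.8.

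Anxa5, which binds phosphatidylserine exposed on dying cells, had 1 probe set, with 2087 in the sham pool and 3807 in the RIR pool (1.82-fold). Anxa7, a membrane fusion protein of secretory vesicles, read 2413 and 4372 by its brightest probe set (1.81-fold). Its other probe sets read 1222 and 1394, and 102.3 and 292.8, and the last of them passed the filter through the RIR pool alone. The probe sets of Anxa7 with both signals above the medians had log2 differences of 0.85 and 0.19. S100a6, also called calcyclin, read 163.1 and 261.4, the second barely above the array median, which leaves a bound of 1.02-fold. Anxa5 and Anxa7 were within 2-fold by the probe set that stands for the gene, and for S100a6 the size of the difference is not known beyond that bound.

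Anxa3, an annexin known from neutrophils and several epithelia, read 744.4 in the sham pool and 729.8 in the RIR pool. Anxa6, an annexin with a duplicated core that is abundant in liver and acts on late endosomes, read 1762 and 1125 by its brightest probe set (1.56-fold lower). Its probe set 1429246_a_at read 1111 and 334.6 (3.21-fold lower), 1442288_at read 609.9 and 637.9, and the last was dim in both pools at 54.7 and 104.7. The passing probe sets of Anxa6 thus disagreed in size and, for 1442288_at at a log2 difference of 0.06, in sign. Anxa4, an annexin of secretory epithelia that is known from bile duct and acinar cells, read 1382 in the sham pool and 735.6 in the RIR pool (1.86-fold lower). Its other probe sets read 455.6 and 359.0, and 139.9 and 282.0, so Anxa4 was lower by a pair of probe sets and higher, from a dim sham signal, by the other.

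**Figure D2:**
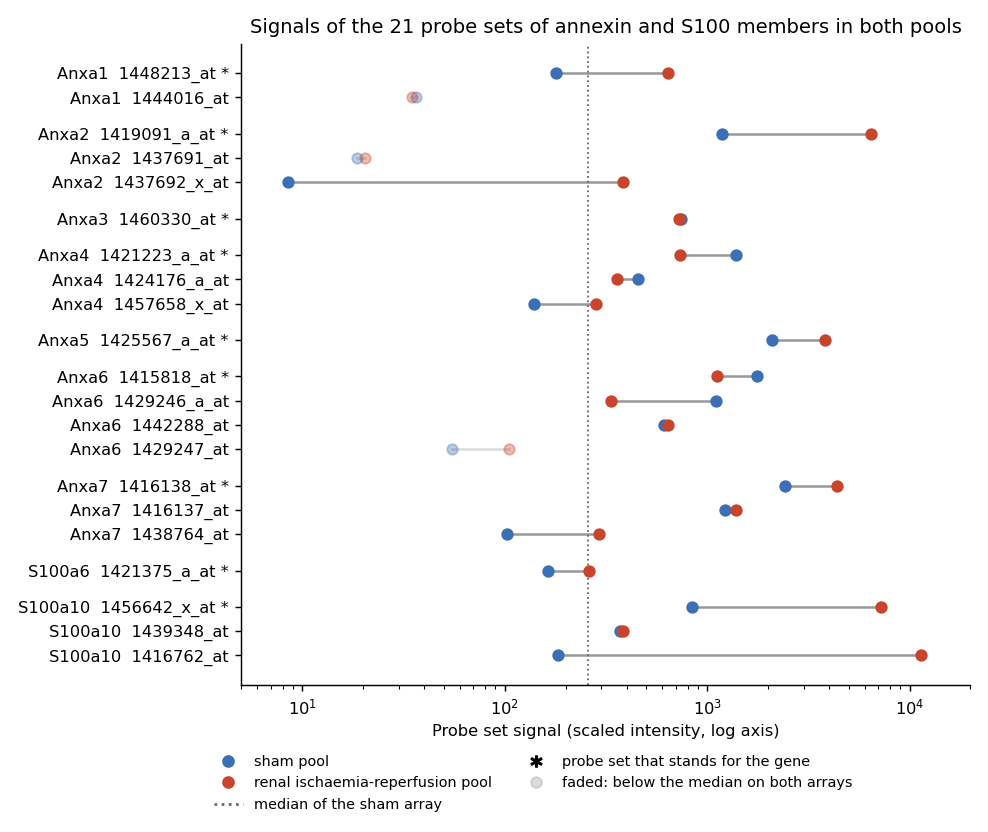
Signal of each of the 21 probe sets of the members (log axis) in the sham pool (blue) and the RIR pool (red), with an asterisk at the probe set that stands for the gene, a dotted line at the median of the sham array and faded points where both signals lie below the medians. The gap between the pools is widest for 1416762_at of S100a10 and 1437692_x_at of Anxa2. The order of the pools differs among the probe sets of Anxa4, Anxa6 and, through a faded probe set, Anxa1.

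Counted by probe set, 18 of the 21 passed the filter, with 6 past 2-fold on the higher side and 1, of Anxa6, on the lower side. By that threshold, 10.4% of all passing probe sets with 1 gene were higher and 10.8% lower. The 6 belong to S100a10, Anxa2, Anxa1 and Anxa7. In 4 of the 6, 1 of each of these genes, the sham signal was below the array median, so they passed the filter through the RIR pool alone and had to be higher there. Within the 5028 genes that had 2 or more passing probe sets, the log2 differences of a gene's probe sets had a pooled SD of 0.72. The differences of Anxa5, Anxa7, Anxa6 and Anxa4 were 0.64 to 0.90 in size, close to that SD. Those of S100a10, Anxa2 and Anxa1 were larger than it, but the probe sets of S100a10 themselves ranged over 5.78. The SD describes disagreement among probe sets and not the spread between mice.

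Promoter sequence is shown for Anxa2 and Anxa1, the members furthest above 0 with an entry in the RefSeq promoter table, and for Anxa4, the member furthest below 0, so that higher and lower members can be compared. The 250 bases before the transcription start are given 5′ to 3′ on the gene's strand, from RefSeq on GRCm38.p6. Anxa2 lies on the plus strand at chr9:69453433-69453682, Anxa1 on the minus strand at chr19:20390672-20390921, and Anxa4 on the minus strand with a pair of annotated starts, at chr6:86793585-86793834 and chr6:86775115-86775364. Capitals mark matches, on either strand, to the 6 motifs searched. These were the TATA box (TATAAA), the GC box (GGGCGG), the AP-1 site (TGANTCA), the STAT site (TTCNNNGAA), the NF-kB site (GGNNTTTCC) and the C/EBP site (TTGCNNAA).
Anxa2: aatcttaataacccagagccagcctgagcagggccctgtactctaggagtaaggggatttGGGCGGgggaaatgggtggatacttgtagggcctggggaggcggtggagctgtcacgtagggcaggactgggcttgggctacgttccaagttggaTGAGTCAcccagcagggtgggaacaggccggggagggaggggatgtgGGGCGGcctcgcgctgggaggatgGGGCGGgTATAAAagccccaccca
Anxa1: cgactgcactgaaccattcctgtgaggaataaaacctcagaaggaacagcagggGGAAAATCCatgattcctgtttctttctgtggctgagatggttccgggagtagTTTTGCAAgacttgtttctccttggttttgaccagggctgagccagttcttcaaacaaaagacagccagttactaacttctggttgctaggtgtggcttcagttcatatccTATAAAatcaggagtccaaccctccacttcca
Anxa4, upstream start: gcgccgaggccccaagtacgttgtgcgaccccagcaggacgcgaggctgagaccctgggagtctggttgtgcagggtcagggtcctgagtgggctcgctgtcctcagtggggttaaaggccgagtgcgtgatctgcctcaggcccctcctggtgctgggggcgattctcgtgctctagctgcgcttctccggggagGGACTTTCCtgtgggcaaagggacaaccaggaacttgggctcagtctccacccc
Anxa4, downstream start: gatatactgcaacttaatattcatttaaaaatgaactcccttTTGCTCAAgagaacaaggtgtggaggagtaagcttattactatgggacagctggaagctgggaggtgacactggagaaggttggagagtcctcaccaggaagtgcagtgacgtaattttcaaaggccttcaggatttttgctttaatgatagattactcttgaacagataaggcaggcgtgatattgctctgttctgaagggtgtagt

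The Anxa2 window held a TATA box whose first base lies 17 bases before the annotated start, 3 GC boxes and an AP-1 match that begins 95 bases before the start. The Anxa1 window held a TATA box that begins 32 bases before the start, a C/EBP match and an NF-kB match, and no AP-1 match. The upstream Anxa4 window held an NF-kB match and the downstream window a C/EBP match, and neither held a TATA box. Of all 32851 promoter windows of the same length, 12.4% held the TATA box, 32.7% the GC box, 6.75% the AP-1 motif, 9.56% the C/EBP motif, 4.93% the NF-kB motif and 7.02% the STAT motif. Across the 9 windows of the 7 members in the table, no STAT match was found, TATA boxes were found for Anxa2 and Anxa1, and AP-1 matches for Anxa2 and S100a11, the last with 2. The windows of Anxa5 and S100a6 held none of the 6 motifs. None of these motifs overlapped another in the windows printed. CpG pairs numbered 9 in the Anxa2 window, 2 in that of Anxa1, and 13 and 2 in the upstream and downstream windows of Anxa4, against a median of 6 over all windows. A match is a string of letters and does not show that a factor binds there.

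The S100a genes lie on mouse chromosome 3, and position is a feature that the choice of members did not use. In the RefSeq annotation S100a11 and S100a10 are adjacent, with no protein-coding gene between them, while 54 protein-coding genes separate them from the group that holds S100a6. Within that group S100a5 precedes S100a6 directly. S100a5 had a log2 difference of 0.22 and S100a4, before it, 0.31, so the signals of these neighbours of S100a6 were within 2-fold. S100a8 and S100a9, on the other side of S100a6, encode calprotectin, an abundant protein of neutrophils. S100a8 read 45.6 in the sham pool and 1407 in the RIR pool, at least 5.21-fold higher, by a probe set of the suffix _s_at, which can bind related transcripts. S100a9 read 204.8 and 788.1, at least 2.95-fold higher. S100a13, next to S100a1 at the far end of the group, read 1405 and 648.5 (2.14-fold lower). Differences along the group thus ran in both directions.

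Other genes of both families were taken from lists fixed with the members. Of 14 other genes with S100 names, 12 had a probe set of their own and 8 passed the filter. Of these 8, 2 were at least 2-fold higher (S100a8 and S100a9) and 1 at least 2-fold lower (S100a13). By that threshold, 8.71% of all genes were higher and 9.59% lower. S100a8 and S100a9 passed the filter through the RIR pool alone and had to be higher there. The median log2 difference of the 8 was 0.26, and S100a14, S100a3, S100b and S100g were below the array medians in both pools. S100a1, a calcium sensor best known from muscle, read 4137 and 3462, and S100a16 read 1934 and 2366. Of 5 other annexins, Anxa8 (476.3 and 376.3) and Anxa9 (412.3 and 336.2) passed and stayed within 2-fold by the probe set that stands for the gene. The other probe set of Anxa8 read 134.5 and 312.3, in the opposite direction and from a dim sham signal. Anxa10 and Anxa13 were dim in both pools, and Anxa11 had no probe set of its own.

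Genes whose proteins act with the members were also taken from a list. Of 25 listed partners, 23 had a probe set of their own and 21 passed the filter. Of these 21, 1 was at least 2-fold higher (8.71% of all genes were), none was lower by that much (9.59% of all genes were), and the median log2 difference was -0.10. The gene past 2-fold was Chmp4b, a subunit of the ESCRT machinery that seals torn membranes, with signals of 2534 and 7802 (3.07-fold higher) and 3.18-fold by its second probe set. Plasminogen itself (Plg), which the S100a10 and Anxa2 complex docks, read 28686 in the sham pool and 30548 in the RIR pool. Its activator Plat read 578.9 and 639.2 by the probe set that stands for it, and 69.7 and 404.5 by the other. The urokinase receptor Plaur read 799.7 and 1168, and urokinase (Plau) 581.5 and 411.9. Plasminogen and its activators were therefore within 2-fold by the probe sets that stand for them.

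Ahnak, a giant scaffold protein that binds S100a10, read 508.8 and 473.2, a log2 difference of -0.10, while another of its passing probe sets read 390.9 and 155.8. Fpr2, the receptor of the Anxa1 tail, read 395.1 and 733.9 (1.82-fold higher). Cacybp, which binds S100a6, read 1376 and 914.9, and sorcin (Sri), which binds Anxa7, 1090.2 and 1186. Dysf and Myof, which mend the plasma membrane together with annexins, had log2 differences of -0.23 and -0.40, and the caveolar proteins Cav1 and Cavin1 of -0.87 and -0.31. By the probe sets that stand for them, these partners lay within 2-fold on either side of 0. Pdcd6ip, which joins Pdcd6 to ESCRT proteins, stood at -0.35, but its 4 passing probe sets ranged from -2.33 to 1.09.

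Of 11 genes that recognise or expose phosphatidylserine, the lipid Anxa5 binds, 10 passed the filter and had a median log2 difference of -0.26. Gas6, a bridging ligand for uptake of dying cells, was 2.10-fold higher (1309 and 2767), whereas its other passing probe set was lower (980.6 and 625.0). Mertk, a receptor for Gas6, read 806.4 and 406.6 (-0.96), and Mfge8, another bridging protein, 1013 and 1584 (0.64). Of the 10, Gas6 alone was at least 2-fold higher, where 8.71% of all genes were. None was at least 2-fold lower, where 9.59% of all genes were.

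**Figure D3:**
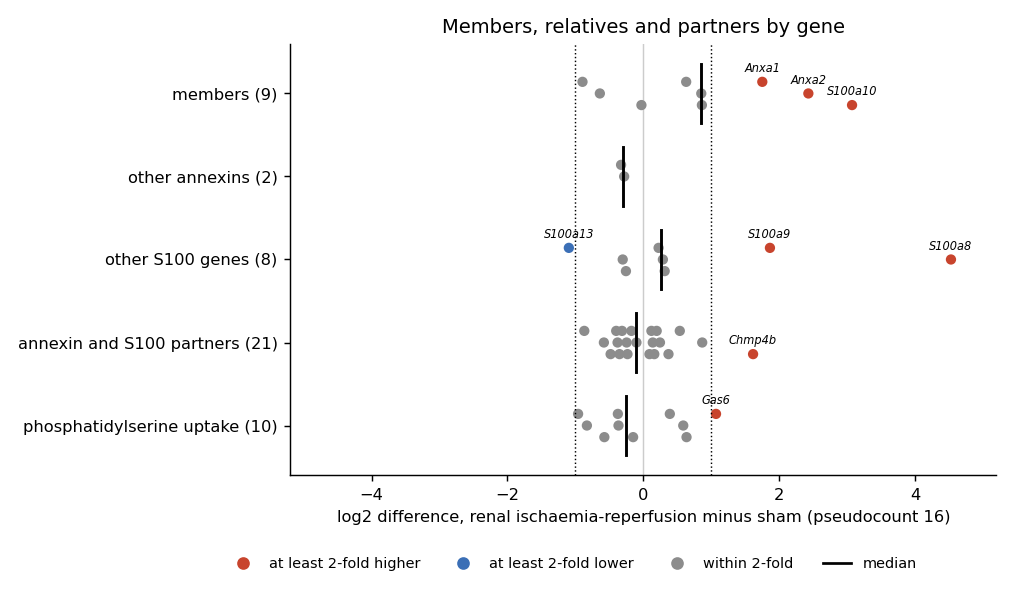
Log2 difference between the pools for each gene past the filter (points, with the number of genes in brackets) in the member list and 4 lists of relatives and partners, with a black bar at the median and dotted lines at 2-fold; genes at least 2-fold higher are red and lower blue. The medians of the 4 other lists lie between -0.30 and 0.26, and the named points are the genes past 2-fold.

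Markers of cell types were also taken from lists, and the medians of these lists differed in direction. All 10 hepatocyte markers passed the filter, with albumin (Alb) at 43573 and 72494, and their median log2 difference was 0.27. None was at least 2-fold higher, and 1 was at least 2-fold lower, Cps1 (33265 and 15307), where 9.59% of all genes were lower. Of 12 measured pancreatic acinar markers, 10 were at least 2-fold higher in the RIR pool (8.71% of all genes were) and none was lower. They had a median log2 difference of 1.77. Their signals summed to 5900.0 (sham) and 15655 (RIR), and none was dim in both pools. Carboxypeptidase A (Cpa1) went from 18.5 to 916.9, which gives a bound of at least 3.42-fold higher. Cpa1, Cpb1, Ctrb1, Ctrl, Pnliprp1 and Sycn passed the filter through the RIR pool alone and had to be higher there. The part of pancreatic RNA in the differences of S100a10, Anxa2, Anxa1 and the other members was not tested.

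Of 8 measured markers of bile duct epithelium, 5 passed the filter, with 3 past 2-fold on the higher side, 1 on the lower side and a median of 1.16. Their signals summed to 1412 (sham) and 2932 (RIR). Krt19 and Epcam passed the filter through the RIR pool alone and had to be higher there, and Krt23 passed through the sham pool alone. By the same threshold, 8.71% of all genes were higher and 9.59% lower. Krt19 read 72.4 and 511.4, Sox9 318.8 and 731.2, and Epcam 180.6 and 1179 by an _x_at probe set, while its other probe set was dim at 33.5 and 39.3. Krt23 read 367.1 and 70.3, and Krt7, Cldn7 and Cftr were dim in both pools. The part of bile duct cells in the differences of Anxa2 and S100a10 was not tested.

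Of 14 measured markers of neutrophils and monocytes, 10 passed the filter, with S100a8 and S100a9 past 2-fold on the higher side, Cxcr2 (291.8 and 107.6) on the lower and a median of 0.14. Their signals summed to 7585 (sham) and 9287 (RIR). S100a8 and S100a9 passed the filter through the RIR pool alone and had to be higher there, and Cxcr2 passed through the sham pool alone. For this list and those that follow, the shares of all genes by the same threshold were 8.71% higher and 9.59% lower. The granule genes Mpo (695.1 and 729.4), Elane (1384 and 1016) and Ngp (1131 and 1469) were within 2-fold, and Camp, Ccr2, Chil3 and Itgam were dim in both pools. Of 11 Kupffer cell and macrophage markers, none was past 2-fold on the higher side and 2 were on the lower (median -0.37, summed signals 14204 and 10006). Of the 2, C1qa passed the filter through the sham pool alone and had to be higher there. For endothelium, Lyve1 was past 2-fold on the higher side and Clec4g on the lower, among 8 passing markers (summed signals 7117 and 7846). For stellate cells and fibroblasts the counts were 1 and 1 of 10 (summed signals 14296 and 16921). The lower gene, Lrat, passed the filter through the sham pool alone. No lymphocyte, mesothelial or erythroid marker that passed was past 2-fold. The median log2 differences of the marker lists for blood, Kupffer, endothelial and stellate cells thus lay between -0.40 and 0.14, and their part in the differences of the members was not tested.

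**Figure D4:**
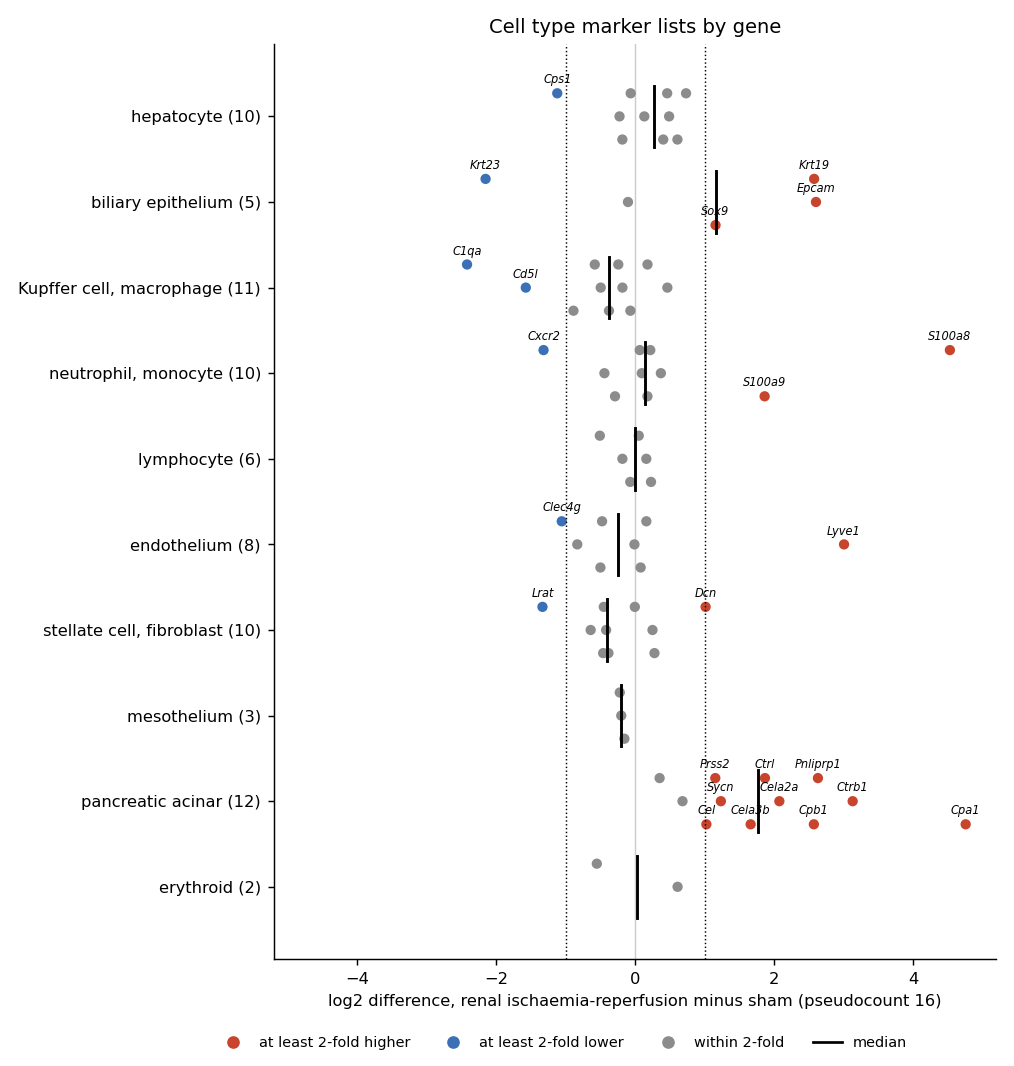
Log2 difference between the pools for each marker gene past the filter (points, with the number of genes in brackets) in 10 cell type lists, with a black bar at the median and dotted lines at 2-fold; genes at least 2-fold higher are red and lower blue. Pancreatic acinar markers have the highest median, 1.77, followed by bile duct markers at 1.16, and the medians of the other 8 lists lie between -0.40 and 0.27.

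The order of the members held in part under other processing. Anxa2 was at least 2-fold higher in each of the 13 settings that gave it a value, from 2.15 to 3.23 on the log2 scale, and Anxa1 in each of 13, from 1.27 to 1.83. The value of 3.23 is the mean that includes 1437692_x_at. For Anxa1 all of these settings read the same probe set, which passed the filter through the RIR pool alone. The setting that asked for both signals above the array medians gave Anxa1 no value. S100a10 was at least 2-fold higher in 13 of 14 settings. The exception was the setting in which the probe set with the smallest difference stands for the gene (0.05). With probe sets of the suffixes _x_at, _s_at and _a_at left out, S100a10 was read by 1416762_at at 5.83. That probe set passed the filter through the RIR pool alone. Anxa4 lay below 0 in all 13 of its settings, from -1.18 to -0.10, and passed 2-fold when hybridisation controls were the reference. Anxa6 was below 0 in 13 of 14 settings.

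**Figure D5:**
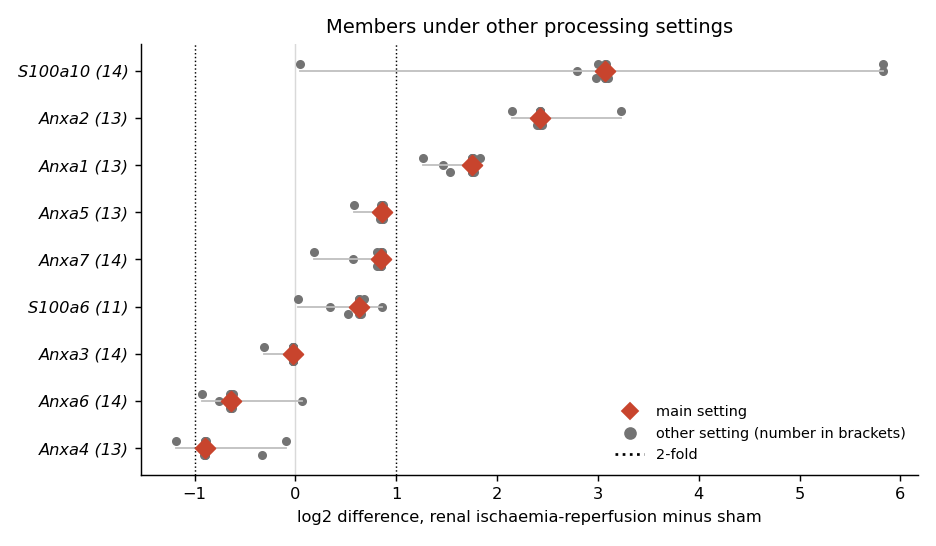
Log2 difference between the pools for each member under the main setting (diamond) and under each other setting that gave it a value (grey points, their number in brackets), with a line over their range and dotted lines at 2-fold. The range is widest for S100a10, from 0.05 to 5.83, and all points of Anxa2 and Anxa1 lie above 2-fold.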

How the data were processed

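Liver RNA of 2 pools, each from 3 mice, was measured on 1 Affymetrix array per pool. RNA extraction was by Trizol, and 6 ug went into biotinylated cRNA, per the labels' protocols. The deposited values are a linear intensity per probe set. The mean of the deposited intensities after trimming 2% at each end was 500.0 on both arrays, and the software behind them is not stated in the labels. Gene names came from the platform annotation, with symbols updated through Entrez IDs. Differences were taken as log2 of the intensity plus a pseudocount of 16, and the pseudocount reduces the differences of dim probe sets. Calls were made at 2-fold. Where a signal lay under its array's median, the fold is a bound against that median, with the pseudocount on both sides. The number of arrays limits the precision.

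The members, the gene lists, the motifs and the settings were chosen with earlier results of these data known. Every member was named, as were listed genes above the array median, by count or with values. The 16 alternatives were other filters (none, the 75th percentile, both arrays), pseudocounts of 1 and 64, other scalings (median centring, quantile, loess with span 0.3, hybridisation controls), other choices of probe set, dim signals raised to the median, and thresholds of 1.5-fold and 3-fold. The probe set with the brightest single signal was added after the data were seen. The steps were tested on simulated data. Python 3.11.15, numpy 2.4.6, pandas 2.3.3 and statsmodels 0.14.6 were used.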

Additional observations from a re-analysis of the deposited data

How the results depend on the processing

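The count of members at least 2-fold higher was 3 of 9 (8.71% of all genes). It was 6 of 9 with a threshold of 1.5-fold, which 18.7% of all genes passed on that side. With both signals above the array medians it was 2 of 7 (5.14% of all genes). With the probe set of smallest difference it was 2 of 9 (7.06%), and 2 of 5 without the suffixes _x_at, _s_at and _a_at (8.55%). The 2 of 9 were Anxa1 and Anxa2, and the 2 of 5 were Anxa1 and S100a10 by 1416762_at. The probe set of Anxa1 and 1416762_at passed the filter through the RIR pool alone and had to be higher there. Anxa1 is also in the counts of 3 and 6, and S100a6, which passed likewise, in the count of 6. The count of members at least 2-fold lower was 0, and became 2 of 9 with a threshold of 1.5-fold (19.3% of all genes) and 1 of 9 with the hybridisation controls as the reference (15.4% of all genes), both near the share of all genes. These controls, 18 of 18 of them brighter on the array of the injured mice by a median of 0.28 (log2), moved the median of all genes from -0.01 to -0.30 and that of the members from 0.85 to 0.57. The median of the members was 0.19 when the probe set with the smallest difference stood for each gene. Without those suffixes Anxa2 was not measured. No difference past 2-fold changed sign in the settings run. No paired analysis was possible because each group has 1 array. Without replicates no result has a measured error, and signals below the array median give bounds.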
